A study of Homo sapiens with 12 samples.

Results

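The natriuretic peptide receptors are encoded by 3 of the 26485 genes counted, *NPR1*, *NPR2* and *NPR3*, and all 3 passed the filter on low counts, as did 17176 genes in total. *NPR3* was selected on its large fall in cells given gag-pol compared to control cells, so its levels in any comparison that uses gag-pol or control libraries are given as a description with no test. *NPR1* and *NPR2* were added as the other members of the family and not for their values. The cells were wild-type HEK293, a human embryonic kidney line grown in culture. Each culture received 1 μg of a plasmid and was collected 48 hr later. The plasmids carried, under a CMV promoter, PEG10 gag-pol, PEG10 gag, the PEG10 nucleocapsid (NC) or, as control, LifeAct-Dendra2, a fluorescent actin-binding peptide. The control is named here as in the sample labels. The study's methods call it a pCDNA negative control, and its list of constructs holds LifeAct in a pCDNA backbone. Both names can thus describe the same plasmid, though the study does not state that they do. PEG10 is a domesticated retrotransposon protein; gag is its shorter form, gag-pol continues into the protease-bearing part, and NC is the piece of gag that carries the zinc finger. There were 3 libraries for each construct, numbered 1 to 3, and poly(A) RNA was sequenced in all 12. The study calls the libraries of a construct biological replicates and modelled harvest date. The labels do not say which culture or date each number stands for. All cells were of 1 line, so p-values measure only the spread between these samples.

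Natriuretic peptides are hormones first known from the heart, which relax vessels, promote sodium loss by the kidney and, in cartilage, promote bone growth. NPR1 and NPR2 are membrane receptors whose intracellular part is a guanylyl cyclase, so that ligand binding makes the second messenger cyclic GMP. NPR1 binds the atrial and B-type peptides (encoded by *NPPA* and *NPPB*) and NPR2 binds the C-type peptide (encoded by *NPPC*). NPR3, the clearance receptor, binds all of them but has no cyclase domain: it removes peptide from the surroundings by internalization and has been linked to inhibitory G proteins.

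The 3 genes lie on different chromosomes, all on the forward strand (GRCh38, GENCODE 44). *NPR1* (ENSG00000169418.10) spans chr1:153678688-153693992, *NPR2* (ENSG00000159899.16) spans chr9:35791003-35809732, and *NPR3* (ENSG00000113389.16), the longest, spans chr5:32689070-32791724. Their merged exons cover 4.952, 8.353 and 9.979 kb. The 120 bases before the start of each gene's main transcript are shown in hg38, forward strand, 5′ to 3′, so that the upstream sequences of the members can be compared. Capitals mark GGGCGG, the core of a GC box, searched on both strands with overlaps counted.
*NPR1*, chr1:153678568-153678687: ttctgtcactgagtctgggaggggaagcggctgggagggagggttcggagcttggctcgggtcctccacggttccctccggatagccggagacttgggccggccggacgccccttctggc
*NPR2*, chr9:35791471-35791590: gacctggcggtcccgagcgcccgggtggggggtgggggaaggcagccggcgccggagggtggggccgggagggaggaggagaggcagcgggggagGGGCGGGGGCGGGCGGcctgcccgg
*NPR3*, chr5:32711201-32711320: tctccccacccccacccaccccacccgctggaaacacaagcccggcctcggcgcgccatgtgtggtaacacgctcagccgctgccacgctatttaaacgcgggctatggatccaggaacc
The *NPR2* stretch held 3 copies of GGGCGG, of which the last 2 overlap, and the other two held 0. The motif was present in 34% of 35116 RefSeq promoter windows of the same length (GRCh38). The *NPR2* stretch was 84.2% G or C with 13 CpG dinucleotides, compared to 68.3% and 9 for *NPR1* and 65% and 10 for *NPR3*, where the RefSeq windows had a median of 60% and 6. *NPR2* and *NPR3* have annotated starts before the one used here, so their stretches lie within the annotated gene. The counts are per gene and do not tell which start was used.

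Libraries held 30625725 to 45316749 counts. *PEG10* took 0.0230 to 0.0346% of the counts in control, 2.80 to 7.35% in gag-pol, 3.78 to 6.10% in gag and 0.238 to 0.389% in NC. It was thus above control in every library labelled with a PEG10 construct. The gag-pol and gag ranges overlapped, and counts per gene do not show which PEG10 construct a library received. All 7 markers of the HEK293 line had counts in every group, and their summed level was 916 to 1250 CPM (counts per gene relative to the library's effective total, as in edgeR). The library gag replicate 2 stood apart. It held 4864 counts of *MYH6* and 743 of *MYH7*, the cardiac myosin heavy chains, where no other library held more than 14 and 12. It also held 688 counts of *NPPA* and 648 of *NPPB*, where the other 11 held at most 28 and 5. Looked up afterwards, the heart muscle genes *ACTC1* (4742 counts), *TNNT2* (1609) and *MYL7* (757) were likewise high in that library and reached at most 33, 8 and 1 count elsewhere. The summed CPM of 10 markers of other cell types was 5.69 to 12.4 in control, 4.39 to 5.25 in gag-pol, 7.53 to 152 in gag and 4.16 to 6.54 in NC; *ADIPOQ* (adipocyte) reached at most 1 count, and *CDH5* (endothelium) and *PTPRC* (leukocyte) at most 9 and 6. Receptor differences and called genes in comparisons with gag are therefore given with and without gag replicate 2.

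*NPR3* was highest in control and lowest in gag-pol. Normalized counts, which are counts scaled to the same effective library size, were 250.2, 226 and 478 in control replicates 1, 2 and 3, and 89.6, 78.05 and 68.8 in gag-pol. They were 166, 170.5 and 254 in gag, and 162, 103 and 202 in NC. The gag-pol libraries were the 3 lowest of the 12, and the control values overlapped those of gag but not those of NC. In bulk RNA, fewer cells that express the gene and less RNA per cell cannot be told apart. The group means were 318 ± 139 (SD, n = 3) in control, 197 ± 49.8 in gag, 156 ± 49.5 in NC and 78.8 ± 10.5 in gag-pol. In raw counts, *NPR3* had 241, 255 and 445 reads in control and 89, 80 and 80 in gag-pol, so the low group still rested on at least 80 reads per library.

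**Figure D1:**
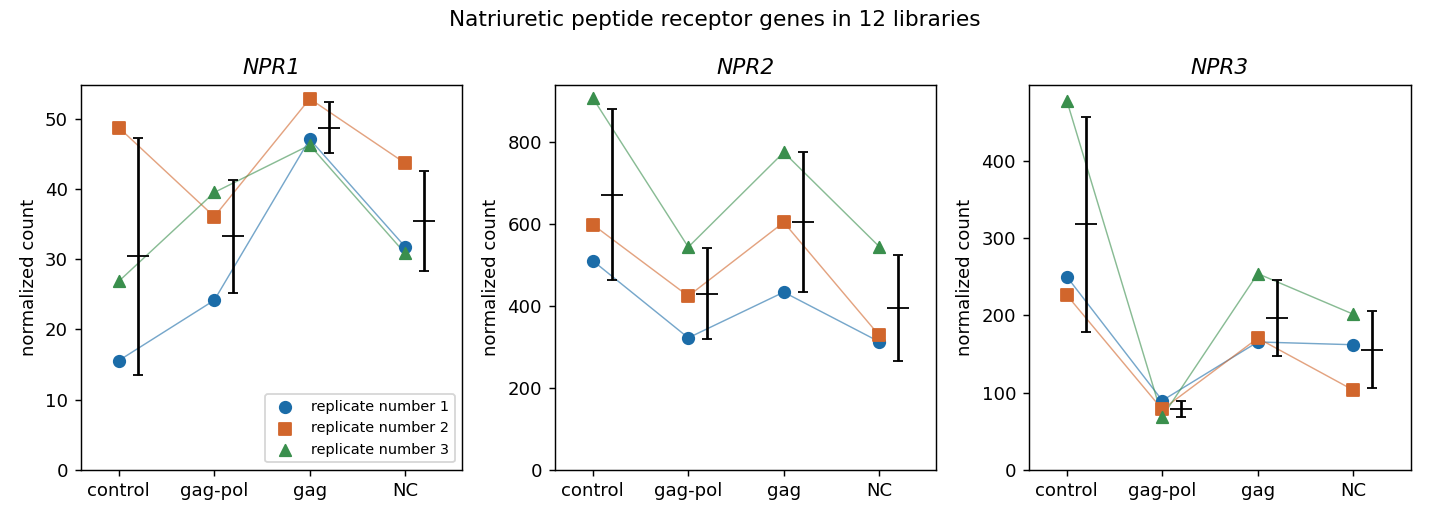
Normalized counts of *NPR1*, *NPR2* and *NPR3* (y axis, each from 0) in the 4 construct groups (x axis); points are single libraries, lines join libraries of the same replicate number, and black marks give mean ± SD (n = 3). *NPR3* sits between 68.8 and 89.6 in gag-pol and at 226 or above in control, while *NPR2* is lower in NC than in control within each replicate number.

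In the fit to all 12 libraries, with replicate number as a term, *NPR3* in gag-pol was below control by a log2 difference of -1.93 ± 0.23 (SE; 95% interval -2.41 to -1.46), which is 3.82-fold lower. This is the value the gene was chosen for. Within replicate numbers 1, 2 and 3 the log2 ratios of normalized counts were -1.48, -1.54 and -2.80, so the gap was widest for number 3. Of all genes tested, 5.48% were called higher and 5.83% lower in gag-pol than in control at an adjusted p under 0.05 (edgeR's quasi-likelihood test, Benjamini-Hochberg). The other constructs share the control libraries with that comparison. Their *NPR3* levels were below control by -0.65 ± 0.22 for gag (-1.10 to -0.21) and by -1.01 ± 0.22 for NC (-1.46 to -0.56; 2.01-fold lower), and the ratio within each replicate number was below 0 on the log2 scale for both. Without gag replicate 2 the gag value was -0.73 ± 0.25, and without control replicate 3, the highest library, it was -0.41 ± 0.24. Gag-pol was below gag by -1.28 ± 0.23, or -1.20 ± 0.27 without gag replicate 2. NC was above gag-pol by 0.92 ± 0.23, or by 0.60 without gag-pol replicate 3.

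NC against gag shares no library with the comparison that chose *NPR3* and was tested. *NPR3* differed by -0.36 ± 0.22 between NC and gag, with a 95% interval of -0.81 to 0.10, and did not pass the test (adjusted p = 0.29, edgeR's quasi-likelihood test). The ratios within replicate numbers were -0.03, -0.72 and -0.33. Without gag replicate 2 the difference was -0.28 ± 0.26 (adjusted p = 0.55). NC and gag, the neighbours in the order of *NPR3* levels, thus did not differ beyond their spread, although the interval leaves room for NC being lower.

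*NPR2*, the receptor for the C-type peptide, was lower in NC than in either control or gag. Normalized counts were 511, 599 and 908.5 in control and 313, 328 and 545 in NC for replicates 1, 2 and 3. They were 434, 605 and 776 in gag, and 322, 424 and 544 in gag-pol. The groups overlapped, and replicate 3 was the highest library in each of them. Once libraries of the same number were compared, NC was below control in all 3 pairs, with log2 ratios of -0.71, -0.87 and -0.74. The fitted difference was -0.77 ± 0.12 (95% interval -1.02 to -0.51; 1.70-fold lower; adjusted p = 0.00089, edgeR's quasi-likelihood test). Among all genes, 5.15% were called lower and 6.04% higher in NC than in control. Without the replicate number as a term the difference was the same size, -0.77, but did not pass (adjusted p = 0.68), and only 2 genes of the whole table did.

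NC was also below gag for *NPR2*, by -0.62 ± 0.12 (-0.88 to -0.36; 1.54-fold lower; adjusted p = 0.0023), with ratios of -0.47, -0.88 and -0.51 within replicate numbers. In this comparison 8.12% of genes were called lower and 8.76% higher. Without gag replicate 2 the difference was -0.54 ± 0.14 and still passed (adjusted p = 0.021). Without the replicate number as a term it was -0.61 (adjusted p = 0.46). In gag, *NPR2* did not pass the test against control: the difference was -0.15 ± 0.12 (-0.40 to 0.10; adjusted p = 0.66), or -0.22 without gag replicate 2 (adjusted p = 0.61). Only 0.699% of genes were called higher and 0.384% lower in gag than in control. In gag-pol, given as a description, *NPR2* was below control by -0.63 ± 0.12 and below gag by -0.49 ± 0.12 (-0.41 without gag replicate 2), and NC and gag-pol lay -0.13 ± 0.12 apart (-0.39 to 0.12). *NPR2* overlaps *SPAG8* on the opposite strand over 1.69 kb, and the strand setting of the counting is not given in the sources used here. *SPAG8* had 5 to 46 counts, compared to 305 to 845 for *NPR2*, and passed in none of the comparisons.

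Among the 10 markers of other cell types, 6 were tested, and *PLIN1*, a lipid droplet protein of adipocytes with 75 to 190 counts, was the only one called in the comparisons where *NPR2* was called. It was lower in NC than in control (-0.93 ± 0.23, adjusted p = 0.011) and than in gag (-0.96 ± 0.23, adjusted p = 0.0065), and lower in gag-pol than in control (-0.94 ± 0.23, adjusted p = 0.0096). The difference between NC and gag was -0.93 without gag replicate 2 (adjusted p = 0.030). The calls against control were lost without control replicate 1, without gag-pol replicates 1 or 3 for gag-pol, and without control replicate 3 or NC replicate 3 for NC (adjusted p up to 0.069 and 0.063). Its partner on the list, *ADIPOQ*, was at 0 or 1 count in all 12 libraries. *NPHS1*, the nephrin gene of the kidney filter, had 40 to 233 counts and passed in none of the comparisons, with -0.87 ± 0.29 in gag-pol against control (adjusted p = 0.054), -0.79 ± 0.29 in NC against control (adjusted p = 0.077) and -0.47 ± 0.29 in NC against gag (adjusted p = 0.28). Of the 7 HEK293 markers, *VIM* (0.36 ± 0.08, adjusted p = 0.0097) and *CDH2* (0.28 ± 0.08, adjusted p = 0.027) were higher in NC than in control, calls lost without control replicate 3 and, for *CDH2*, also without control replicate 2 or any NC library (adjusted p up to 0.077 and 0.20). Both were also higher in NC than in gag (*VIM* 0.38, adjusted p = 0.0045; *CDH2* 0.40, adjusted p = 0.0022), and *LIN28B* was lower (-0.38, adjusted p = 0.0038). In the same order these were 0.31 (adjusted p = 0.047), 0.36 (adjusted p = 0.019) and -0.47 (adjusted p = 0.0047) without gag replicate 2. The part of these markers in the receptor values was not tested.

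*NPR1*, the receptor for the atrial and B-type peptides, was the least abundant member. It had 15, 55 and 25 raw counts in control replicates 1 to 3, 24, 37 and 46 in gag-pol, 39, 54 and 45 in gag, and 31, 47 and 28 in NC. These raw counts overlapped between all groups. In normalized counts, gag (47.15, 52.9 and 46.3) lay above NC (31.8, 43.7 and 30.85) and gag-pol (24.2, 36.1 and 39.55). Control (15.6, 48.8 and 26.9) overlapped each of them. Counting error alone is wide at this depth: the lowest library, with 15 counts, has an exact 95% Poisson interval of 8.39 to 24.7, and the highest, with 55, one of 41.4 to 71.6. None of the tested differences passed. They were 0.75 ± 0.39 for gag against control (-0.05 to 1.56; adjusted p = 0.41), 0.28 ± 0.39 for NC against control (-0.54 to 1.09; adjusted p = 0.70) and -0.47 ± 0.38 for NC against gag (-1.27 to 0.32; adjusted p = 0.44). Without gag replicate 2 the gag values were 0.92 against control (adjusted p = 0.47) and -0.63 for NC against gag (adjusted p = 0.41). The *NPR2* difference in NC against control (-0.77) lies outside the *NPR1* interval of that comparison, and that in NC against gag (-0.62) lies inside it. None of the 3 reached an unadjusted p under 0.05, and none passed with DESeq2.

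**Figure D2:**
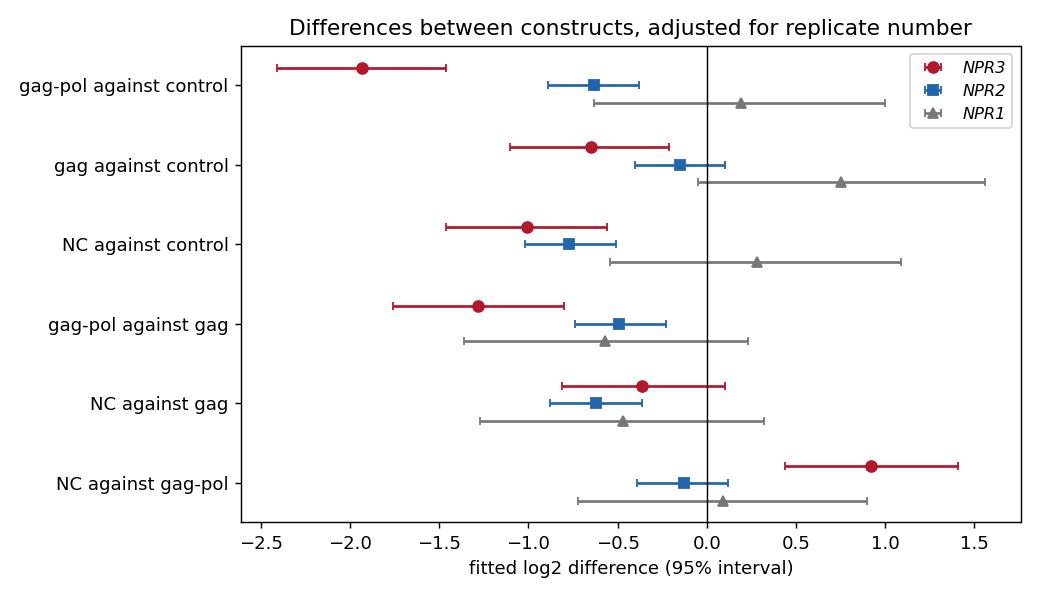
Fitted log2 differences (x axis) of *NPR3* (red circles), *NPR2* (blue squares) and *NPR1* (grey triangles) in the 6 pairs of constructs (y axis), with bars for 95% intervals. The *NPR2* interval lies below 0 in NC against control (-1.02 to -0.51) and NC against gag (-0.88 to -0.36), while the *NPR1* intervals all include 0.

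Levels of the 3 genes were compared as CPM per kb of merged exon. In control cells *NPR2* was highest at 2.14 ± 0.666 (SD, n = 3), followed by *NPR3* at 0.849 ± 0.371 and *NPR1* at 0.1635 ± 0.0908. The same order held in gag (1.93 ± 0.544, 0.525 ± 0.133 and 0.262 ± 0.0194), in NC (1.26 ± 0.414, 0.415 ± 0.132 and 0.191 ± 0.0385) and in gag-pol (1.37 ± 0.354, 0.2102 ± 0.0279 and 0.179 ± 0.0434). In gag-pol, *NPR3* and *NPR1* were within their spread of each other. Relative to *NPR2* on this scale, *NPR3* stood at 0.410, 0.316 and 0.441 in control replicates 1, 2 and 3 and at 0.233, 0.154 and 0.106 in gag-pol. It stood at 0.319, 0.236 and 0.274 in gag and at 0.434, 0.263 and 0.3095 in NC. The gag-pol ratios were all below those of the control libraries, while the NC ratios overlapped those of both control and gag. As a share of the summed level of the 3 receptors, *NPR3* made up 26.5 ± 4.15% in control, 22.2 ± 4.67% in NC, 19.4 ± 2.15% in gag and 12.5 ± 4.30% in gag-pol. These ratios use the values that chose *NPR3* and are a description.

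**Figure D3:**
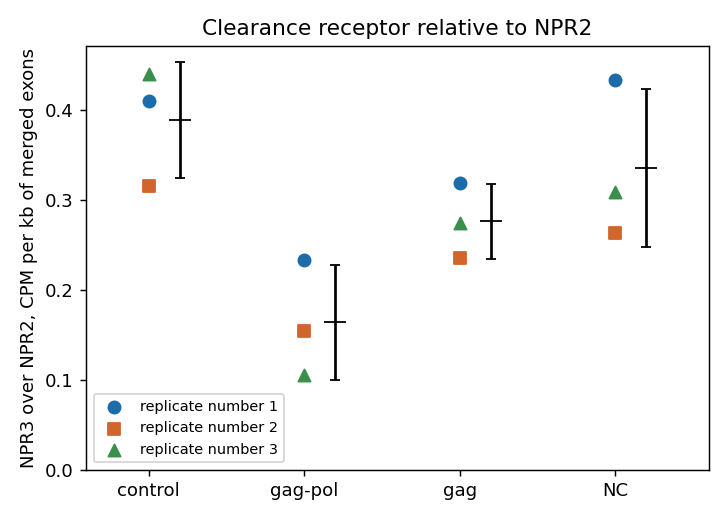
Ratio of *NPR3* to *NPR2*, both as CPM per kb of merged exon (y axis, from 0), by construct (x axis); points are single libraries by replicate number, and black marks give mean ± SD (n = 3). The mean is 0.389 in control, 0.335 in NC, 0.277 in gag and 0.164 in gag-pol.

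The receptors were also compared between replicate numbers, which are balanced over constructs, and of the tested members only *NPR2* differed. *NPR2* was higher in replicate 3 than in replicate 1 by 0.81 ± 0.11 (adjusted p = 3.5e-06) and than in replicate 2 by 0.51 ± 0.11 (adjusted p = 0.0010, edgeR's quasi-likelihood test). Replicate 2 was above replicate 1 by 0.30 ± 0.11 (adjusted p = 0.038), a call lost without replicate 1 or 2 of control, gag-pol or gag (adjusted p up to 0.17). For *NPR3* the differences are a description, since they rest on the libraries it was chosen from: replicate 3 lay above replicate 2 by 0.66 ± 0.19 and above replicate 1 by 0.43 ± 0.19, and replicates 2 and 1 differed by -0.24 ± 0.20. *NPR3* was highest in replicate 3 in control, gag and NC, but lowest in replicate 3 in gag-pol. For *NPR1* the differences were 0.68 ± 0.34 for 2 against 1 (adjusted p = 0.13), 0.32 for 3 against 1 (adjusted p = 0.48) and -0.36 for 3 against 2 (adjusted p = 0.46). Many genes varied this way: 30.5% of those tested were called between replicates 2 and 1, 41.6% between 3 and 1, and 27.1% between 3 and 2. In size, the *NPR2* difference between replicates 3 and 1 (0.81) was about that between NC and control (-0.77).

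Of the ligands, *NPPC*, which encodes the peptide of NPR2, was the only one with substantial counts in all libraries. It had 414, 690 and 548 counts in control, 624, 634 and 838 in gag-pol, 575, 677 and 860 in gag, and 474, 660 and 595 in NC. The differences from control did not pass (gag-pol 0.28 ± 0.12, adjusted p = 0.14; gag 0.46 ± 0.12, adjusted p = 0.073, or 0.57 and 0.067 without gag replicate 2; NC 0.11 ± 0.12, adjusted p = 0.63). *NPPC* was lower in NC than in gag by -0.36 ± 0.12 (adjusted p = 0.049). That call was kept only without control replicate 3, gag-pol replicate 3 or gag replicate 2, where it was -0.46 (adjusted p = 0.038), and was lost without any of the other 9 libraries (adjusted p up to 0.22). *OSTN*, whose product osteocrin binds NPR3, had 10 to 74 counts and passed in none of the 4 comparisons. *NPPA* had 3 to 28 counts outside gag replicate 2 and did not pass (adjusted p of 0.34 to 0.92); *NPPB*, with 0 to 5 counts outside that library, was not tested.

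A list of 35 further genes of natriuretic peptide and cyclic GMP signalling was counted, including these ligands, the enzymes that process or degrade the peptides, other guanylyl cyclases, cyclic GMP-dependent kinases, phosphodiesterases, exporters and inhibitory G proteins. In all, 31 were tested. In gag-pol against control 1 was called higher and 2 lower, in gag against control 0 and 1, in NC against control 0 and 2, and in NC against gag 3 and 3. The medians of their log2 differences were -0.11, -0.08, -0.07 and 0.06 in that order, where all genes tested had -0.00, 0.00, 0.00 and -0.01. In gag against control 1 gene was higher at an unadjusted p under 0.05 and DESeq2 called 1 higher and 2 lower; in NC against control 2 were higher at that level and DESeq2 called 0 higher and 3 lower. Set beside the percentages of all genes called, these counts are too small to describe the list as apart from other genes.

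*VASP*, an actin regulator that cyclic GMP-dependent kinase phosphorylates, was lower in gag-pol than in control (-0.49 ± 0.09, adjusted p = 0.0016) and lower in NC than in control (-0.46 ± 0.09, adjusted p = 0.0033). Normalized counts were 2254, 1916 and 2480 in control, 1551, 1483 and 1691 in gag-pol, and 1763, 1427 and 1635 in NC, with neither group overlapping control. Both calls held when any 1 library was left out (adjusted p up to 0.017 and 0.036). In gag *VASP* was -0.25 ± 0.09 from control (adjusted p = 0.18), or -0.21 without gag replicate 2 (adjusted p = 0.47).

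*PLCB3*, a phospholipase C that G proteins activate, was called lower than control with NC (-0.34 ± 0.08, adjusted p = 0.012), gag (-0.33 ± 0.08, adjusted p = 0.046) and gag-pol (-0.25 ± 0.08, adjusted p = 0.047). The NC call was lost only without control replicate 3 (adjusted p up to 0.091). The gag value was -0.35 without gag replicate 2 (adjusted p = 0.13). The gag call was kept only without gag-pol replicates 1 or 3 or NC replicates 2 or 3, and the gag-pol call only without NC replicate 2. *PDE1B*, a phosphodiesterase that breaks down cyclic GMP and cyclic AMP, was higher in gag-pol than in control (0.69 ± 0.18, adjusted p = 0.014), with normalized counts of 280.2, 237 and 169 in control and 452, 344 and 302 in gag-pol. The call was lost without control replicates 2 or 3 or gag-pol replicates 1 or 3 (adjusted p up to 0.11).

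In NC against gag, *MME*, which encodes neprilysin, a protease that degrades natriuretic peptides, was higher (0.70 ± 0.19, adjusted p = 0.015). Normalized counts were 229, 258 and 194 in NC and 133, 163 and 121 in gag, without overlap. It was 0.81 without gag replicate 2 (adjusted p = 0.030). The call was lost without NC replicate 2 or gag replicate 1 (adjusted p up to 0.10). *CORIN*, the protease that activates the atrial peptide precursor, was lower (-1.57 ± 0.49, adjusted p = 0.031). Its raw counts were 19, 5 and 26 in NC and 26, 58 and 59 in gag, which overlapped at 26. Its normalized counts were 19.5, 4.65 and 28.65 in NC and 31.4, 56.8 and 60.7 in gag, without overlap. The *CORIN* call was lost without any gag library or NC replicates 2 or 3 (without gag replicate 2, -1.22, adjusted p = 0.16). The smaller changes were *GUCY1B3* (the soluble cyclase beta subunit, now *GUCY1B1*; 0.25, adjusted p = 0.046), *ABCC4* (0.24, adjusted p = 0.035) and *ABCC5* (-0.28, adjusted p = 0.025), both of which export cyclic nucleotides. Without gag replicate 2, *ABCC5* passed (adjusted p = 0.048) and *GUCY1B3* (0.18) and *ABCC4* (0.11) did not. *ABCC4* and *ABCC5* were each lost without NC replicates 1 or 3 or gag replicates 1 or 3, and *GUCY1B3* without any gag or NC library, gag-pol replicates 1 or 2, or control replicate 2.

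The nearest protein-coding genes gave 0 calls in gag-pol or gag against control among the 10 tested with edgeR. The next counts take in *SPAG8*, which overlaps *NPR2*, and leave out *TARS1*. At an unadjusted p under 0.05 there were 1 higher and 1 lower with gag-pol and 0 higher and 1 lower with gag. DESeq2, with 12 genes tested, also called 0 in both. Of all genes tested, 5.48% were called higher and 5.83% lower with gag-pol, and 0.699% and 0.384% with gag. These shares were 6.04% and 5.15% in NC against control, and 8.76% and 8.12% in NC against gag. Beside them, calls among 10 genes are too few to describe the neighbours as apart from other genes. In NC against control, *HINT2*, 3.23 kb beyond *NPR2*, was higher (0.47, adjusted p = 0.017), as was *SUB1*, 85.0 kb before *NPR3* (0.28, adjusted p = 0.032), where the fitted differences of *NPR2* and *NPR3* were -0.77 and -1.01. Both calls were lost without control replicates 2 or 3 or NC replicate 2, and that of *SUB1* also without NC replicates 1 or 3 (adjusted p up to 0.10 and 0.21). In NC against gag, *HINT2* (0.40, adjusted p = 0.028), *SUB1* (0.37, adjusted p = 0.0050) and *SLC27A3* beside *NPR1* (0.45, adjusted p = 0.0082) were higher and *ZFR*, 244 kb before *NPR3*, was lower (-0.33, adjusted p = 0.0069). When gag replicate 2 was left out, *SUB1* (0.35, adjusted p = 0.033), *SLC27A3* (0.55, adjusted p = 0.012) and *ZFR* (-0.40, adjusted p = 0.0097) passed and *HINT2* (0.30, adjusted p = 0.19) did not. *HINT2* was also lost without NC replicate 2 or gag replicate 1, *SLC27A3* without NC replicate 1 or gag replicate 3 (adjusted p up to 0.077), and *ZFR* without NC replicate 1 or gag replicate 1 (adjusted p up to 0.074). *ADAMTS12*, 732 kb after *NPR3*, had 0 to 5 counts and *TARS1*, 649 kb after it, passed in none of the 4 comparisons.

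The 5 genes whose profile over the 12 libraries was most like that of *NPR3* were found among 13419 genes with a mean log2 CPM of at least 1, by the root mean square difference of log2 CPM after each gene was centred on its own mean. They were *CCDC13* (0.24), *EFCAB12* (0.34), *NPIPB6* (0.35), *CFAP44* (0.37) and *CNBD2* (0.37). All share with *NPR3* the same libraries and depth, and *NPIPB6* belongs to a family of near-identical copies, so its counts are uncertain. Their log2 differences in gag-pol against control were -1.36, -1.20, -1.26, -1.07 and -1.26 in that order, each smaller in size than that of *NPR3* (-1.93). In NC against gag they were -0.28, -0.45, -0.51, -0.71 and -0.40. As likeness was measured on the libraries that chose *NPR3*, this is a description.

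**Figure D4:**
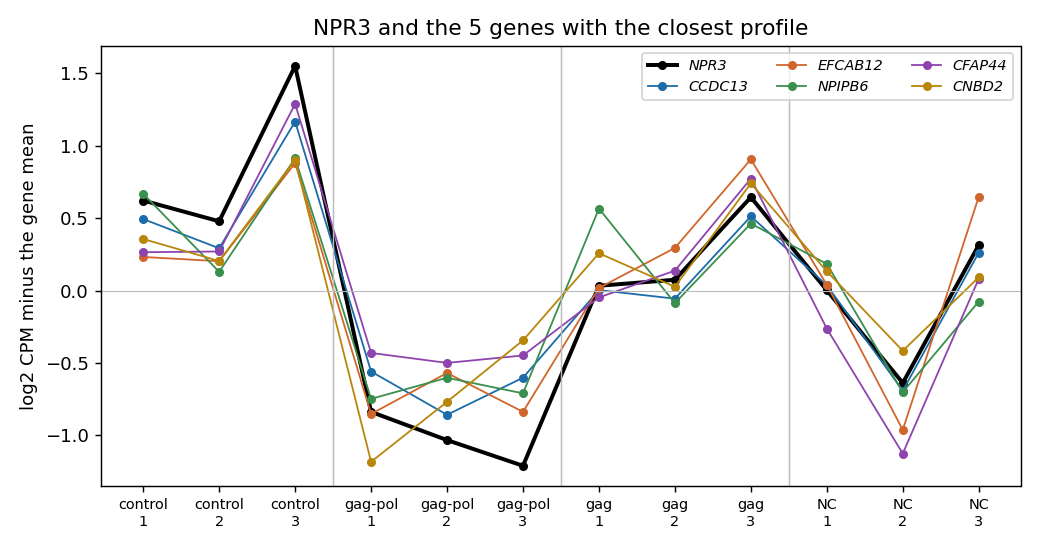
Log2 CPM minus the gene's own mean (y axis) for *NPR3* (black) and the 5 genes with the closest profile (colours) in each of the 12 libraries (x axis); lines join libraries for reading only. All 6 genes are below their own mean in the 3 gag-pol libraries and above it in the 3 control libraries.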

How the data were processed

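Poly(A) RNA of 12 HEK293 libraries was sequenced as read pairs by the authors, who mapped reads to GRCh38.p13 with STAR 2.7.3, sorted them with SAMtools 1.8 and counted them with featureCounts. The deposited values are these raw counts per gene symbol. The annotation release, strand setting and treatment of reads with several positions are not given in the sources used here. Libraries were grouped by construct from the labels.

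Counts were analysed with edgeR 4.0.16 in R 4.3.3: TMM normalization, filterByExpr by construct (a minimum count of 10 and a total of 15) and the robust quasi-likelihood test. Construct and replicate number were the terms of a single fit to the 12 libraries (6 residual degrees of freedom). P-values were Benjamini-Hochberg adjusted over 17176 genes, and 0.05 was the threshold. The study modelled harvest date; here the replicate number stood in its place. Libraries of the same number deviated together from their construct means in all 18 pairs (correlations of 0.14 to 0.54). In the 36 pairs of different number the correlations were -0.50 to 0.07. Centring on construct means ties these ranges together, so the second is not separate support for pairing. To normalize a count, it was divided by the library's effective size (total times TMM factor) and rescaled to the mean total. Per-length levels used GENCODE 44 merged exons. Poisson intervals cover counting error only. No 2 libraries of a group agreed within sampling noise (chi-square per degree of freedom of 33.9 or more). *NPR3* was also in the fit between replicate numbers, but its p there is not given, as those libraries chose it. Tests were checked on simulated data.

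The members and gene lists were chosen with earlier results of these data known. Named genes were the members, *PEG10*, every ligand and every called gene on the list, the 2 nearest protein-coding genes on each side of a member, and the 5 closest profiles; 3 list genes were matched by older symbols. Markers and cardiac genes were named where they moved or stood apart. DESeq2 1.42.0, 2 other normalizations, the filters, the libraries and terms in the fit, and leaving out each library were tried as alternatives. The value of 1 marker gene is not reported here.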

Additional observations from a re-analysis of the deposited data

How the results depend on the processing

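The replicate number decided most calls. Without the replicate block, genes called fell to 2 each in gag-pol, gag and NC against control and 1 in NC against gag, pathway genes called fell to 0 in all 4 comparisons (3, 5, 2 and 5 at an unadjusted p under 0.05 in gag-pol, gag and NC against control and NC against gag), and *NPR2* was -0.77 in NC against control (adjusted p = 0.68) and -0.61 in NC against gag (adjusted p = 0.46). Both *NPR2* calls held under each other alternative (adjusted p up to 0.0082 and 0.021). With only the 6 compared libraries, 1131 genes were called in gag-pol against control, 344 in gag against control, and 1 pathway gene in NC against gag. With DESeq2, 434 genes and 3 pathway genes were called in gag against control and 10 pathway genes in NC against gag; without the filter on low counts, 373 and 3 were called in gag against control. With upper-quartile scaling *NPR2* in replicate 2 against replicate 1 was 0.27 (adjusted p = 0.060).

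Leaving out 1 library at a time, *NPR1* in gag-pol against control ran from -0.05 to 0.56, turning below 0 without control replicate 1 (-0.05) or gag-pol replicate 3 (-0.03), and NC against gag-pol from -0.05 to 0.31, below 0 without gag-pol replicate 2 (-0.05) or NC replicate 1 (-0.04). *NPR2* in gag-pol against gag ran from -0.54 to -0.41 and in replicate 2 against replicate 1 from 0.24 to 0.37. *NPR3* ran from -2.11 to -1.60 in gag-pol against control, -0.79 to -0.41 in gag against control, -1.14 to -0.77 in NC against control, -0.47 to -0.21 in NC against gag, -1.46 to -0.96 in gag-pol against gag, 0.60 to 1.10 in NC against gag-pol, 0.24 to 0.63 in replicate 3 against replicate 1 and from 0.47 to 0.87 in replicate 3 against replicate 2. Genes called ran from 737 (without control replicate 3) to 2445 in gag-pol against control, 33 (without gag replicate 1) to 426 (without control replicate 3) in gag against control, 367 (without control replicate 3) to 2369 in NC against control, 940 (without gag replicate 1) to 3556 in NC against gag, and 3263 (without control replicate 2) to 5696 in replicate 2 against replicate 1. Pathway genes called ran from 1 to 3, 0 to 1, 1 to 3 and 0 to 9 in gag-pol, gag and NC against control and NC against gag. Depth limits *NPR1* most, with 15 to 55 counts per library.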
